A study of Mus musculus with 12 samples.

Results

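The clustered histone genes are here the genes named after the 4 replication-dependent histone clusters of the mouse. These clusters are Hist1 (chromosome 13), Hist2 (chromosome 3), Hist3 (chromosome 11) and Hist4 (chromosome 6). The genes were taken by symbol from the GENCODE M21 annotation of mm10. A gene was kept when it had 5 or more counts in at least 2 of the 12 count files. This rule kept 47 of 70 such genes, among 55833 features listed by at least 1 file. The members are 5 of 6 linker histone H1 genes, 8 of 20 H2A genes, 12 of 19 H2B genes, 10 of 12 H3 genes and 12 of 13 H4 genes. The members were thus chosen by their counts, with no comparison between groups. The members at the edge of the rule were Hist1h2aj, Hist1h2ak, Hist1h2bb, Hist1h2bm, Hist1h3b and Hist1h4f, whose second highest library held 5 counts. Just outside it were Hist1h2ab, Hist1h2af, Hist1h2ai and Hist1h2bl, with 4 counts in that library. Of the 47 members, 45 are annotated as protein coding, and Hist1h2aj and Hist1h2al as pseudogenes. Hist1h2al starts at base 51202727 of chromosome 13, apart from the other Hist1 members, which all end by base 23764406. No count was recorded in any library for 7 of the 70 genes.

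Clustered histone genes supply the histones that package new DNA during S phase. H2A, H2B, H3 and H4 form the nucleosome core, and H1 binds the linker DNA between nucleosomes. Their messenger RNAs are the animal mRNAs that end in a conserved stem-loop in place of a poly(A) tail: the stem-loop binding protein SLBP holds the loop, the U7 snRNP directs the cut after it, and the RNA is degraded when replication stops. Some of these genes also make polyadenylated RNA from signals downstream of the loop, and that form is known from cells that leave the cycle. A library made from poly(A)-selected RNA keeps the tailed form and loses much of the tail-less form, so the counts below are not a measure of all histone mRNA.

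The series concerns CK1α, the kinase encoded by Csnk1a1, which restrains Wnt and p53 signalling, in cells in which cGAS-STING sensing of cytosolic DNA was studied. It holds 12 bulk RNA-seq libraries in 6 groups of 2, all from C57BL/6J mice. The first set, labelled as bone marrow derived macrophages (BMDM) lacking TREX, a DNA exonuclease, was treated with SSTC3, a small molecule that activates CK1α, or with DMSO, its solvent. The labels number these 4 libraries TREX1-KO and TREX2-KO (SSTC3) and TREX3-KO and TREX4-KO (DMSO), so an effect of these labels and of the treatment cannot be told apart. The second set, mouse embryonic fibroblasts (MEF), carried CK1α overexpression or an overexpression control. The third set, also MEF, carried a CK1α knockdown, named as siRNA in the titles, or a knockdown control. No dose, time, construct or siRNA sequence is given, and nothing says that the 2 libraries of a group came from separate cultures, so p-values measure only the spread between these libraries. All 12 libraries were made from polyA+ RNA and read as pairs of 150 bases.

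Library totals ran from 16063627 to 19427506 counts. Csnk1a1 had 3332 and 3217 counts in the knockdown libraries and 5221 and 6319 in their controls. In the overexpression libraries it had 3855 and 4101 counts against 4120 and 4038, so the labelled overexpression does not show in the counts of this gene. The 4 libraries labelled BMDM held 9.08 to 11.1 CPM (counts scaled to the library total) over 20 macrophage markers, with Adgre1 at 0, and 6357 to 8135 CPM over 14 fibroblast markers. Of the macrophage markers, 12 had no count in the DMSO libraries and 9 had none in the SSTC3 libraries. The knockdown set held 254 to 302 CPM of macrophage markers and the overexpression set 14.1 to 17.0, beside 1353 to 1544 and 3079 to 3309 CPM of fibroblast markers. The labelled cell types therefore go against the markers in the first set, which is called the SSTC3 set below. The part of cell makeup in the results below was not tested, and in bulk samples fewer cells of a type and less RNA per cell cannot be told apart.

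The stem-loop that ends the tail-less RNA was searched for in the annotated 3′ ends, since it marks where the tail-less RNA ends. The motif was a stem of GGCTCT closed by AGAGCC, or of GGCCCT closed by AGGGCC, around the loop TTTN, with up to 1 mismatch. An annotated 3′ UTR long enough to hold it was present in 40 of the 45 coding members. The first spelling was found exactly in 24 members, all H1, H2A, H2B or H3 genes, and the second in 9, all H4 genes. Hist1h3g and Hist1h4a matched with 1 mismatch. The sites of the members that the results turn on follow as DNA, 5′ to 3′, read from the M21 transcripts, with the 16 bases of the loop in capitals and 5 bases on each side.
Hist1h1c: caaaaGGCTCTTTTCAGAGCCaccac
Hist1h1d: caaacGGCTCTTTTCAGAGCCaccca
Hist1h1e: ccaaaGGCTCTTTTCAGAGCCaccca
Hist3h2a: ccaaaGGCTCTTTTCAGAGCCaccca
Hist2h3c2: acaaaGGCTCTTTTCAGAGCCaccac
Hist1h3e: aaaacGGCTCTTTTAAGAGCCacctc
Hist1h3g: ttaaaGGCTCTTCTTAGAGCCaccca
Hist1h4i: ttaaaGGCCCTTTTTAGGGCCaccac
Hist1h4n: ctaaaGGCCCTTTTCAGGGCCatcca

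The second spelling thus stands behind Hist1h4n, which was called, and Hist1h4i, which was not. Within the motif these 2 sites differ only at the free base N. The annotated length past the loop varies. The M21 transcript of Hist1h1c goes on for 840 bases after the loop, that of Hist1h1d for 4884, that of Hist1h1e for 1153 and that of Hist3h2a for 1643. Those of Hist1h3g and Hist1h4n stop after 47 and 31 bases. In all, 19 members have a transcript that runs more than 100 bases past the loop, 18 have a poly(A) signal (AATAAA or ATTAAA) in the annotated 3′ UTR, and 20 have a 3′ UTR longer than 300 bases. No loop was found in the annotated 3′ UTR of Hist2h2be (2192 bases) or Hist1h2bc (742 bases), and Hist1h1b has no annotated 3′ UTR. Calls were made in both length classes. With knockdown 6 of 16 tested members with a 3′ UTR over 300 bases fell and none rose. Of 12 with up to 300 bases 3 fell and 1 rose. Of all genes tested 26.4% fell and 28.3% rose, so these class counts are not read as an effect of length. The shorter class also holds members with no annotated 3′ UTR, such as Hist1h1b.

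The 20 members with a 3′ UTR over 300 bases held most of the counts: 83.8% of the members' summed counts in the SSTC3 set, 78.0% in the overexpression set and 95.2% in the knockdown set. Hist1h1c carries much of this, and without it the shares were 71.6%, 73.3% and 77.0%. Per length the classes lay closer together, where the exon length that divides the counts includes the 3′ UTR. The median level over the 12 libraries was 0.797 CPM per kb of exon for the 20 long members and 0.699 for the 25 members with up to 300 bases. Their medians per kb lay close, while their counts did not.

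**Figure D1:**
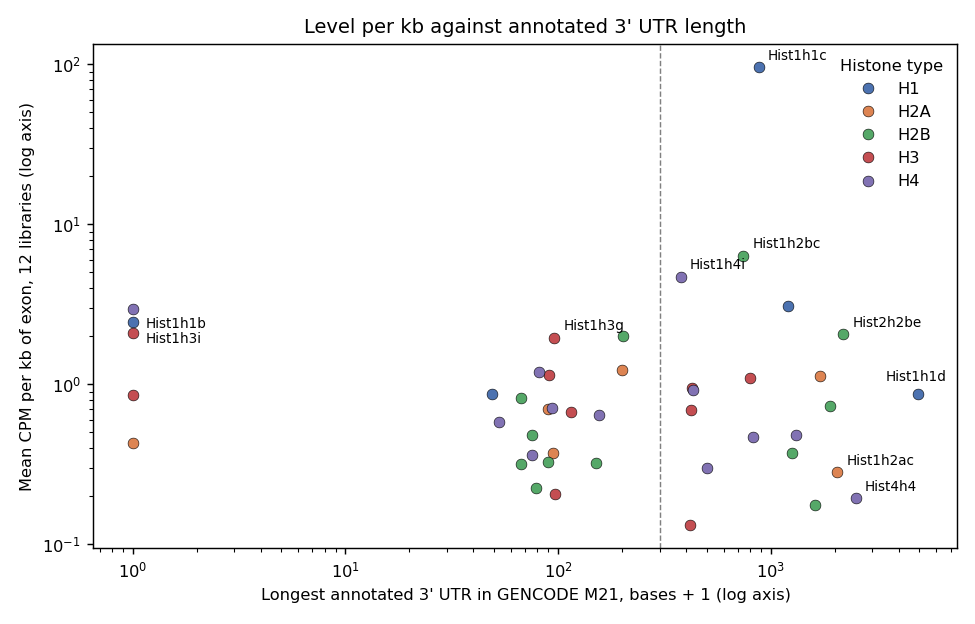
Each point is 1 of the 45 coding members; the x axis is its longest annotated 3′ UTR in bases plus 1, the y axis its mean level in CPM per kb of exon over 12 libraries, both on log axes, the colour is the histone type and the dashed line stands at 300 bases. Hist1h1c lies far above the rest at 96.2 CPM per kb. The other long members spread from 0.132 to 6.36 CPM per kb and the short ones from 0.205 to 2.95. The exon length under the y axis includes the 3′ UTR of the x axis, so the axes are not independent.

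Promoters were compared because 4 of 5 H1 genes fell in the knockdown comparison. RefSeq starts (GRCm38.p6) could be matched for 40 of the 47 members. Within 250 bases before the start, on either strand, CCAAT was present in 31 of 40 members (77.5%), against 37.5% of 27025 genes, and TATAAA in 22 of 40 (55%), against 14.3%. The octamer ATTTGCAT was present in 4 of 6 H2A and 5 of 10 H2B promoters and in no H1, H3 or H4 promoter, 22.5% of the members against 1.81% of all genes. The H1 box AAACACA was present in 4 of 5 H1 promoters and in 1 H2B promoter, 12.5% against 7.20%. The 150 bases before the start are printed for the H1 genes called in the knockdown comparison and for Hist3h2a, in the direction of transcription, with matches to these motifs on either strand in capitals. They lie at chr13:21780626-21780775 (minus strand), chr13:23738657-23738806 (plus), chr13:23554882-23555031 (plus), chr13:23622559-23622708 (minus) and chr11:58954535-58954684 (plus).
Hist1h1b: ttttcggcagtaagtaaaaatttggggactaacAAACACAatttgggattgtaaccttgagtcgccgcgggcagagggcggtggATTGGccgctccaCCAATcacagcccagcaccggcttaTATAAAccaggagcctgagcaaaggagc
Hist1h1c: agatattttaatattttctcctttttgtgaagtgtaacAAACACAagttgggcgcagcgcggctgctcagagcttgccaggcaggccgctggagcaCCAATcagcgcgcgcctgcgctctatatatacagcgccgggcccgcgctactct
Hist1h1d: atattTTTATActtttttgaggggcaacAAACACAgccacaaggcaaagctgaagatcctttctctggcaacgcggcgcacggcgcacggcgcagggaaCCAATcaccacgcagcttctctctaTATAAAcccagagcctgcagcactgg
Hist1h1e: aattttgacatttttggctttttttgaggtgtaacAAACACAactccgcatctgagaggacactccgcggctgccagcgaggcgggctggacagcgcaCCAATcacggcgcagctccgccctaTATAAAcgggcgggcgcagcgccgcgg
Hist3h2a: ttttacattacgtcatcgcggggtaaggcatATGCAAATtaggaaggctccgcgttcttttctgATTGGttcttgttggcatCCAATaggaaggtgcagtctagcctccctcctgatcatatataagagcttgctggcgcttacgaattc

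The 4 H1 promoters share the AAACACA match far upstream and a CCAAT match nearer to the start, and the promoter of Hist3h2a holds the octamer instead. A match describes the letters only, and binding was not measured.

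Summed levels differed between the 3 sets more than within them. Summed over the 47 members, the level was 49.5 to 70.9 CPM in the SSTC3 set, 21.03 to 29.6 in the overexpression set and 428 to 645 in the knockdown set. The gap was widest for H1, whose 5 genes summed to 371 to 562 CPM in the knockdown set, 21.3 to 37.9 in the SSTC3 set and 3.87 to 7.56 in the overexpression set. The 12 H4 genes summed to between 8.29 and 10.8 CPM in the knockdown set, to between 4.87 and 6.96 in the SSTC3 set and to between 10.3 and 11.1 in the overexpression set. The summed H4 of the 2 MEF sets was similar only with Hist1h4i: without this gene it ran from 2.03 to 3.33 CPM with or without overexpression, below the 8.29 to 10.8 CPM of the knockdown set, where Hist1h4i had no count. Cells and library set change together between the sets, and the overexpression files also list other features than those of the SSTC3 and knockdown sets, which list the same ones. What sets these levels cannot be told apart.

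**Figure D2:**
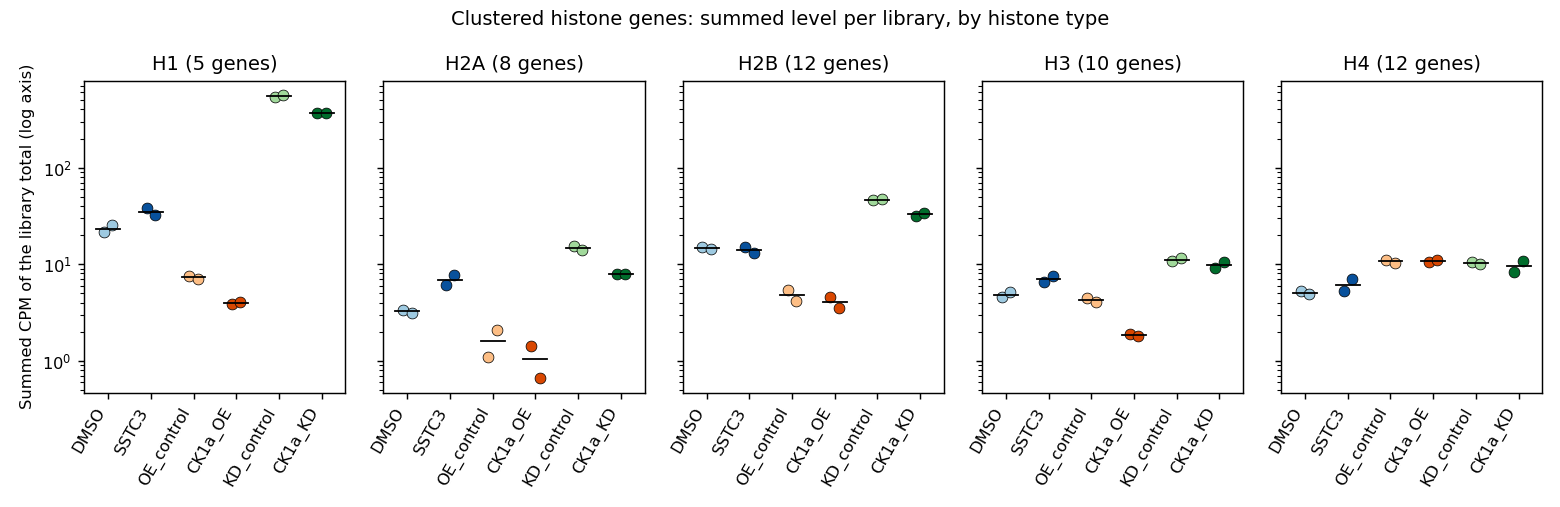
Each panel sums the members of a histone type; each point is 1 of the 12 libraries, the bar is the mean of the 2 libraries of a group, and the y axis is summed CPM of the library total on a log axis. H1 reached 371 to 562 CPM in the knockdown set and 3.87 to 7.56 CPM in the overexpression set, while H4 stayed between 4.87 and 11.1 CPM everywhere.

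Hist1h1c (H1f2 in RefSeq), a linker histone gene expressed in most somatic cells, held 42.9% of the members' counts in the SSTC3 set and 79.2% in the knockdown set. In the overexpression set it held 17.7%, and Hist1h4i, an H4 gene, held 31.4%. Per kb of exon, Hist1h1c stood at 269 CPM in the knockdown set, 16.5 in the SSTC3 set and 2.85 in the overexpression set. Next to it per kb in the knockdown set were Hist1h2bc (13.4), an H2B gene, the pseudogene Hist1h2al (8.77) and Hist1h1e (8.30). In the overexpression set Hist1h4i led with 10.9 CPM per kb. Hist1h4i had 121 and 151 counts in the overexpression libraries and 136 and 131 in their controls, 31 and 49 in the SSTC3 libraries, 36 and 43 in the DMSO libraries, and 0 in each of the 4 knockdown set libraries. A count of 0 allows up to 3 counts, here 0.154 to 0.187 CPM, for counting error only. Thus the most counted clustered histone gene of 1 MEF set was not detectable at this depth in the other. Hist1h2bk was also at 0 throughout the knockdown set, and Hist1h2al throughout the SSTC3 set, where 0 allows up to 0.178 CPM.

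The 3 comparisons asked how CK1α activation, overexpression and knockdown change RNA levels. A gene was tested where its counts passed edgeR's filter for low counts, and called where the Benjamini-Hochberg adjusted p over all genes tested was under 0.05. That filter passed 20 of the 47 members in the SSTC3 comparison, 7 in the overexpression comparison and 29 in the knockdown comparison. Fold changes below are log2 values with their standard error from edgeR's quasi-likelihood fit.

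CK1α knockdown went with lower counts of 4 H1 genes and of some H2A and H2B genes. Of the 29 members tested, 10 fell, where 26.4% of all genes tested fell, and 1 rose, where 28.3% of all genes rose. The fallen members were 4 of 5 H1 genes, 3 of 5 H2A genes and 3 of 6 H2B genes, and the gene that rose was an H4 gene. In either direction 11 of 29 passed, where 54.7% of all genes did, so calls were not more frequent among the members than among all genes, and the calls are results on the single genes. None of 7 H3 genes was called by edgeR, by DESeq2 or by limma-voom, and 0 of them had an unadjusted p under 0.05 in any of the 3. The median log2 fold change was −0.49 over the 29 members and −0.01 over all genes. The sum over all 47 members was 437 ± 4.48 CPM (SD, n = 2, TMM-scaled) with knockdown and 625 ± 16.05 in the controls, a ratio of 0.699, and 0.587 without Hist1h1c. By type the ratio of sums was 0.693 for H1, 0.550 for H2A and 0.718 for H2B. H3 and H4 sums overlapped between the groups. Macrophage markers summed to 299.8 and 301.8 CPM with knockdown and 254.4 and 259.5 in the controls, and fibroblast markers to 1353 and 1375 against 1502 and 1544.

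SSTC3 went with higher counts of a few members of different types. Of the 20 members tested, 5 rose, where 27.1% of all genes tested rose, and 1 fell, where 26.5% of all genes fell. These shares lie near or below those of all genes, so the calls are results on the single genes and not on the members as a group. The risen members were Hist1h1b, Hist1h1c, Hist3h2a, Hist1h3e and Hist2h3c2, and Hist2h2be fell. The median log2 fold change was 0.40 over the 20 members and 0.01 over all genes. The sum over the 47 members was 70.5 ± 2.66 CPM (SD, n = 2, TMM-scaled) with SSTC3 and 50.2 ± 2.29 with DMSO, a ratio of 1.41, and 1.30 without Hist1h1c. Fibroblast markers summed to 6357 and 6498 CPM with SSTC3 and 7855 and 8135 with DMSO, and macrophage markers to 10.95 and 11.1 against 9.08 and 9.38.

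CK1α overexpression went with lower counts of Hist1h1c and Hist1h3g. They were the 2 called of 7 members tested, where 7.57% of all genes tested fell. No member rose, where 5.78% of all genes rose; by edgeR, DESeq2 and limma-voom 0 members were higher at an unadjusted p under 0.05. The median log2 fold change was −0.40 over the 7 members and 0.00 over all genes. It was 0.088 without CK1a_OE replicate 2, 0.095 without OE_control replicate 2, −0.09 without OE_control replicate 1 and −0.43 without CK1a_OE replicate 1. These 4 fits tested more members than the 7. Whether the library left out or the changed set of members moved the median therefore cannot be told apart. The median was −0.67 with DESeq2 and −0.65 with no filter, each over 47 members, and −0.45 over 33 members in the fit of all 12 libraries. The sum was 21.6 ± 0.893 CPM (SD, n = 2, TMM-scaled) against 28.8 ± 1.34, a ratio of 0.750. Fibroblast markers summed to 3079 and 3096 CPM against 3262 and 3309, and macrophage markers to 14.1 and 15.3 against 16.9 and 17.0. An exact permutation test of such a sum, 2 libraries against 2, cannot go below p = 0.333.

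**Figure D3:**
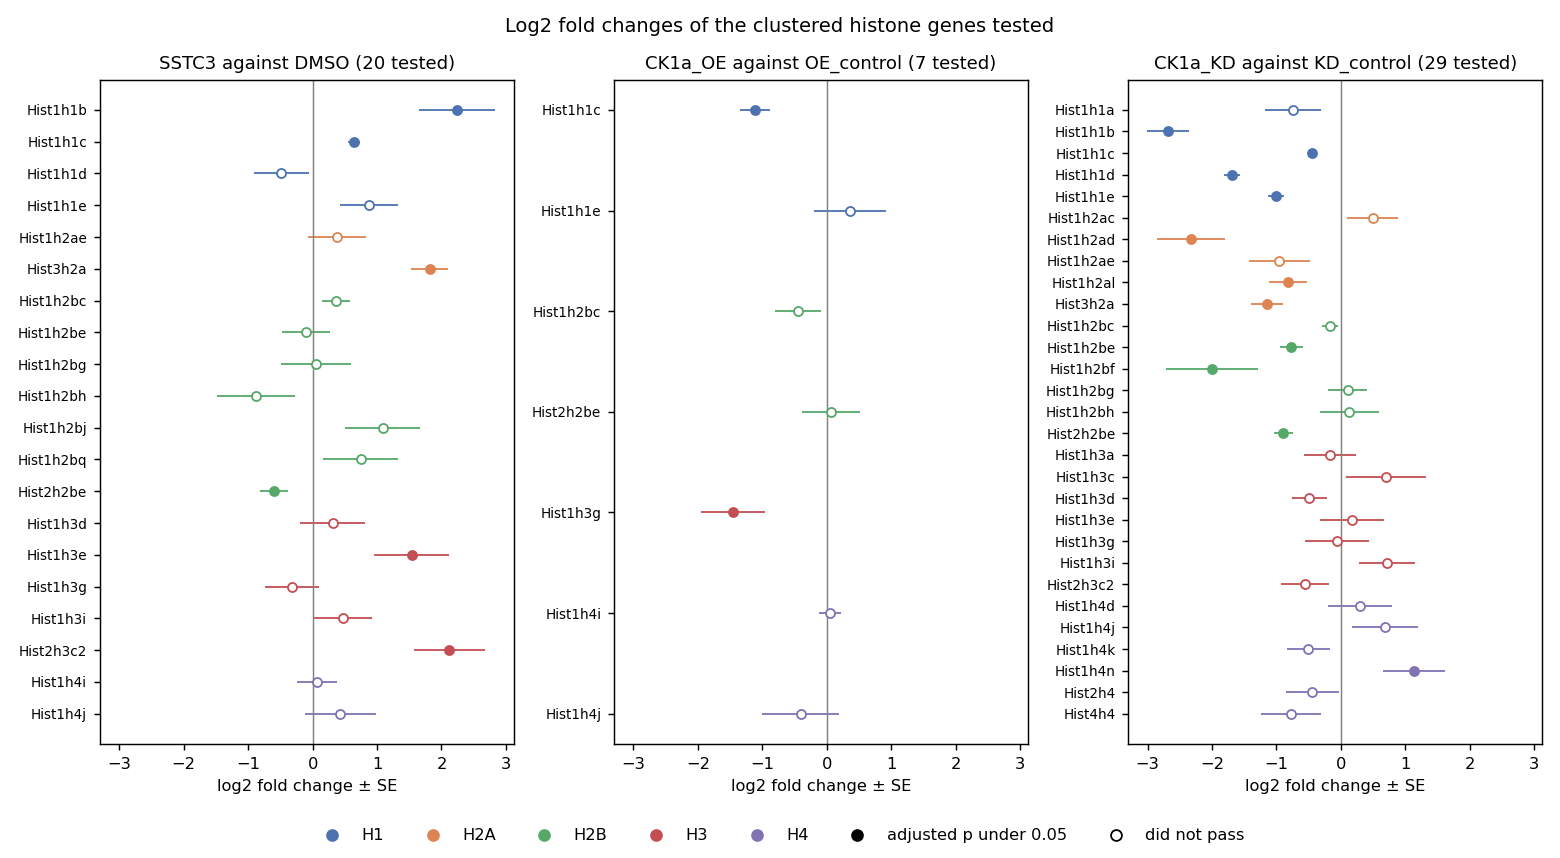
Each point is the log2 fold change of a member tested in that comparison, with its standard error as the bar; filled points passed an adjusted p under 0.05 and the colour is the histone type. In the knockdown panel the H1 genes lie between −2.68 and −0.45 and the H3 and H4 genes on both sides of 0; in the SSTC3 panel Hist1h1b, Hist2h3c2 and Hist3h2a lie near 2.

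Of the linker histone H1 genes, Hist1h1c was called in all 3 comparisons, and 3 others fell with knockdown. Hist1h1c had 6833 and 6628 counts with knockdown and 7725 and 8913 in the controls, 555 and 495 with SSTC3 and 323 and 374 with DMSO, and 46 and 49 with overexpression and 107 and 102 in its controls. In each set the 2 groups did not overlap, with the SSTC3 libraries above and the knockdown and overexpression libraries below their controls. The log2 fold change was −0.45 ± 0.04 with knockdown (edgeR, adjusted p = 1.81e-14), 0.64 ± 0.10 with SSTC3 (1.37e-09) and −1.11 ± 0.23 with overexpression (0.000437). All 3 calls held under every alternative that gave an adjusted p.

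Hist1h1b (H1f5 in RefSeq), an H1 gene tied to dividing cells, had 12 and 34 counts with knockdown and 97 and 174 in the controls. It had 28 and 14 counts with SSTC3 against 2 and 7 with DMSO, and 2 and 2 with overexpression against 2 and 3. The knockdown libraries lay far below and the SSTC3 libraries above their controls, and the overexpression libraries were near the lowest countable level. Its log2 fold change was −2.68 ± 0.33 with knockdown (edgeR, adjusted p = 2.06e-07) and 2.24 ± 0.59 with SSTC3 (0.00056). The SSTC3 call was lost without DMSO replicate 1 (1.61, adjusted p = 0.0641) and without SSTC3 replicate 1 (1.66, 0.163), and the knockdown call was not lost under any alternative.

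Hist1h1d (H1f3 in RefSeq) had 159 and 163 counts with knockdown and 447 and 494 in the controls, 21 and 12 with SSTC3 and 23 and 25 with DMSO, and at most 4 in any overexpression set library. The knockdown libraries lay far below their controls and the SSTC3 libraries just below theirs. The log2 fold change was −1.69 ± 0.12 with knockdown (edgeR, adjusted p = 5.01e-19) and −0.48 ± 0.43 with SSTC3 (0.353).

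Hist1h1e (H1f4 in RefSeq) had 199 and 204 counts with knockdown and 320 and 414 in the controls, 30 and 18 with SSTC3 and 13 and 14 with DMSO, and 11 and 13 with overexpression and 11 and 8 in its controls. The knockdown libraries lay below, the SSTC3 libraries above, and the raw counts of the overexpression groups met at 11. The knockdown difference was −1.01 ± 0.13 (edgeR, adjusted p = 3.9e-10) and the SSTC3 difference, 0.88 ± 0.45, did not pass (0.0894). Hist1h1e shares 25.7% of its exon bases with Hist1h2be and Gm11398 on the same strand, so reads there could be split between them.

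Hist1h1a (H1f1 in RefSeq) had 15 and 21 counts with knockdown and 24 and 31 in the controls, groups that did not overlap, and −0.75 ± 0.44 did not pass the test (edgeR, adjusted p = 0.144). Without Hist1h1c, the other 4 H1 genes summed to 21.3 ± 1.72 CPM (SD, n = 2, TMM-scaled) with knockdown and 58.2 ± 4.76 in the controls, a ratio of 0.366. The same sum overlapped between the groups in the SSTC3 and overexpression sets. The fall with knockdown was thus larger in proportion in Hist1h1b, Hist1h1d and Hist1h1e than in Hist1h1c, which holds most of the counts.

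**Figure D4:**
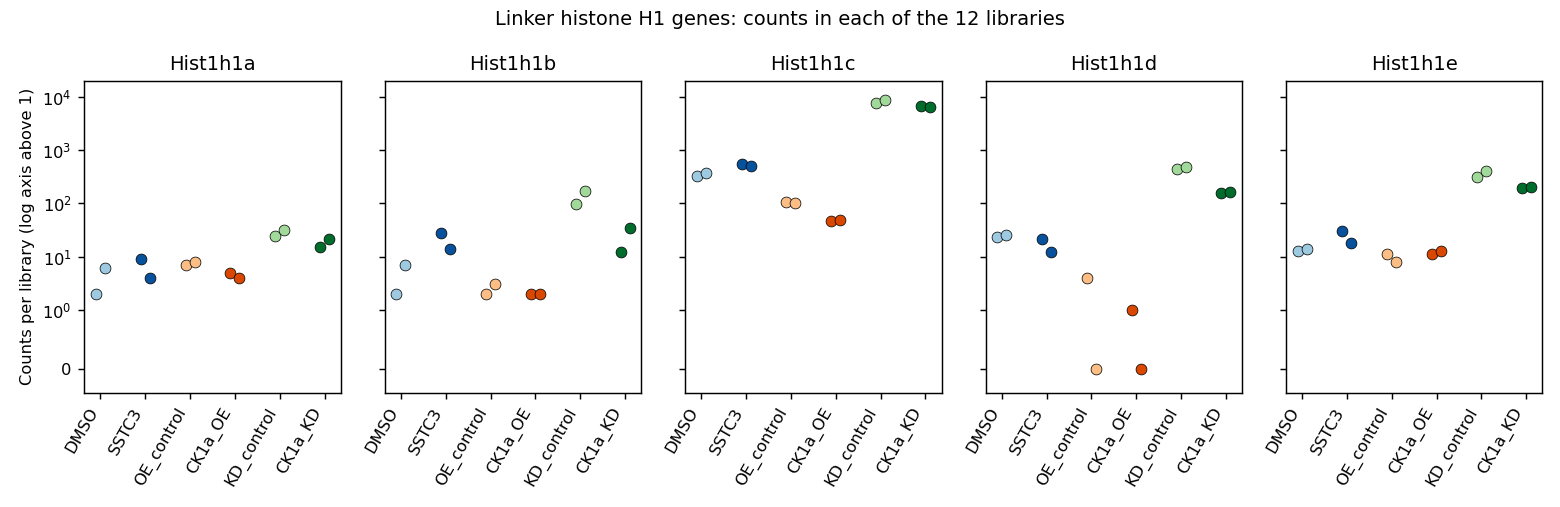
Counts of the 5 H1 members in each of the 12 libraries, 1 point per library, on a y axis that is logarithmic above 1. Hist1h1d falls from 447 and 494 to 159 and 163 with knockdown, and Hist1h1b is at 12 to 34 counts with knockdown and at 97 to 174 in the controls.

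Among the H2A genes only Hist3h2a was called both with SSTC3 and with knockdown, in opposite directions. Hist3h2a (H2aw in RefSeq), the H2A gene of the Hist3 cluster, had 74 and 83 counts with SSTC3 and 23 and 23 with DMSO, 44 and 47 with knockdown and 88 and 95 in the controls, and 12 and 1 with overexpression and 3 and 10 in its controls. The SSTC3 and knockdown groups were apart, and the overexpression groups overlapped at counts too low to test. The log2 fold change was 1.82 ± 0.29 with SSTC3 (edgeR, adjusted p = 8.15e-09) and −1.15 ± 0.25 with knockdown (6.6e-05), and both calls held under every alternative. It shares 33.0% of its exon bases with other genes, among them Trim17 on the same strand. Trim17 moved the same way, at 37 and 30 counts with SSTC3 against 8 and 5, and 32 and 17 with knockdown against 54 and 83. Its part in the Hist3h2a counts was not tested.

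With knockdown Hist1h2ad, a core H2A gene, had 8 and 5 counts against 27 and 33 (−2.33 ± 0.52, edgeR, adjusted p = 0.000123). Hist1h2al, a pseudogene, had 37 and 44 against 72 and 57 (−0.82 ± 0.29, 0.0143). Hist1h2al was lost with DESeq2 (adjusted p = 0.146), in the fit of all 12 libraries (0.0577), without CK1a_KD replicate 1 (0.0964) and without KD_control replicate 1 (0.214), while Hist1h2ad held under every alternative. They share 24.1% and 32.2% of their exon bases with an antisense gene, and the sources used here do not say whether the counting used strand. Of the other H2A members tested, Hist1h2ae (−0.95 ± 0.48) and Hist1h2ac (0.49 ± 0.39) did not pass. Summed H2A was 7.94 ± 0.015 CPM (SD, n = 2, TMM-scaled) with knockdown and 14.4 ± 1.08 in the controls, and 6.98 ± 1.19 with SSTC3 and 3.19 ± 0.13 with DMSO. No H2A member had counts enough for the test in the overexpression set.

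H2B genes differed among themselves. Hist2h2be, an H2B gene with no loop found in its annotated 3′ UTR, had 137 and 144 counts with knockdown and 210 and 263 in the controls, and 62 and 57 with SSTC3 and 103 and 85 with DMSO. It was lower than its controls in both sets, by −0.89 ± 0.15 (edgeR, adjusted p = 6.38e-07) and −0.60 ± 0.22 (0.0129). The SSTC3 call was lost with DESeq2 (adjusted p = 0.145), without DMSO replicate 1 (0.147) and without SSTC3 replicate 2 (0.0849).

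Hist1h2bc, which also has a long 3′ UTR and no loop found, had 270 and 285 counts with knockdown and 265 and 297 in the controls, 86 and 89 with SSTC3 and 74 and 67 with DMSO, and 27 and 27 with overexpression and 50 and 25 in its controls. Scaled to library size (TMM), the knockdown libraries lay below their controls, at 14.1 and 15.2 against 16.4 and 16.4 CPM, although the raw counts overlapped. The SSTC3 libraries lay slightly higher than theirs, and the overexpression groups overlapped. No comparison passed: −0.16 ± 0.12 with knockdown, 0.36 ± 0.21 with SSTC3 and −0.45 ± 0.36 with overexpression. Hist1h2be had 108 and 108 counts with knockdown against 170 and 162 (−0.77 ± 0.17, edgeR, adjusted p = 0.000127). Its exons overlap those of Hist1h1e over 11.2% of their length. Hist1h2bf had 4 and 3 counts against 11 and 15 (−1.996 ± 0.714, 0.0148), and this call was lost with DESeq2 (0.158) and without each of the 4 libraries in turn. Summed H2B was 33.1 ± 1.83 CPM (SD, n = 2, TMM-scaled) with knockdown and 46.1 ± 0.918 in the controls, and it overlapped between groups in the SSTC3 and overexpression sets.

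Of 5 H3 members tested, 2 were called higher with SSTC3, where 27.1% of all genes tested rose. The 2 calls are results on single genes and not on H3 genes as a group. None of 7 H3 members tested was called with knockdown. Hist2h3c2 had 22 and 25 counts with SSTC3 and 1 and 10 with DMSO, 29 and 22 with knockdown and 31 and 37 in the controls. Its SSTC3 difference of 2.12 ± 0.55 (edgeR, adjusted p = 0.000481) was lost when either of 2 libraries was left out: without DMSO replicate 1 it was 1.26 (0.104), and without SSTC3 replicate 2 it was 2.02 (0.0603). Of the windows of 150 bases in its transcript, 59.4% also occur in other annotated transcripts, among them Hist2h3c1, so its reads may be shared with near copies. Hist1h3e had 15 and 19 counts with SSTC3 and 3 and 9 with DMSO (1.54 ± 0.58, 0.0186), a call lost with DESeq2 (0.197) and in 3 of the 4 fits that leave out 1 library: without DMSO replicate 1 (0.313), SSTC3 replicate 1 (0.096) or SSTC3 replicate 2 (0.222).

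Hist1h3g, whose loop differs from the searched spelling by 1 base, had 10 and 7 counts with overexpression and 29 and 19 in the controls, 15 and 22 with SSTC3 and 31 and 17 with DMSO, and 16 and 18 with knockdown and 16 and 16 in the controls. The overexpression groups were apart, and the others overlapped. The overexpression difference of −1.46 ± 0.50 (edgeR, adjusted p = 0.042) was lost with no filter (0.065), in the fit of all 12 libraries (0.0731) and without each library in turn, where adjusted p was 0.0974 to 0.459. Hist1h3d had 44 and 55 counts with knockdown against 55 and 71 (−0.49 ± 0.28) and 18 and 12 with SSTC3 against 12 and 13 (0.31 ± 0.51), and neither passed. Summed H3 was 1.84 ± 0.0849 CPM (SD, n = 2, TMM-scaled) with overexpression and 4.28 ± 0.262 in the controls, and 7.22 ± 0.683 with SSTC3 and 4.75 ± 0.378 with DMSO.

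H4 genes, the most alike in protein sequence of the core histones, mostly did not pass the test. Hist1h4i did not pass with SSTC3 (0.07 ± 0.31) or with overexpression (0.05 ± 0.17). Hist1h4k had 24 and 43 counts with knockdown against 42 and 44 (−0.50 ± 0.34, not passed). Hist1h4n had 24 and 32 counts with knockdown and 10 and 13 in the controls, the rise of 1.13 ± 0.48 (edgeR, adjusted p = 0.0388). The knockdown libraries were the higher ones here, unlike in the H1 genes, but the call was lost without each library in turn (0.0569 to 0.268), with DESeq2 (0.222), with no filter (0.0574) and in the fit of all 12 libraries (0.097). Summed H4 was 10.7 ± 0.33 CPM (SD, n = 2, TMM-scaled) with overexpression and 10.8 ± 0.55 in the controls, and the groups overlapped, as they did with knockdown. With SSTC3 it was 6.23 ± 1.24 against 4.98 ± 0.275.

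Counting every member, also those too low to test, the 2 groups did not overlap for 6 members that were higher and 20 that were lower with knockdown, for 16 higher and 5 lower with SSTC3, and for 3 higher and 9 lower with overexpression. Over all features that meet the same count rule, groups did not overlap for 31.2% that were higher and 33.2% that were lower with knockdown, 34.6% and 28.3% with SSTC3, and 22.1% and 22.8% with overexpression. Of the 47 members, more were lower than higher with knockdown and with overexpression, and more were higher than lower with SSTC3. Only the count lower with knockdown stood above the share of all features, and the other counts were near or below theirs. They are therefore not read as a result on the members as a group. Hist1h2aj, higher with knockdown, met the count rule only through the knockdown libraries (6 and 5 counts). The 20 lower with knockdown held all 5 H1 and 6 of 8 H2A members, against 4 of 12 H2B, 3 of 10 H3 and 2 of 12 H4 members. Counts of 0 to 10 made many of these gaps a matter of a few reads.

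The genes around histone supply were read from lists. Of all genes tested, 27.1% rose and 26.5% fell with SSTC3, and 28.3% rose and 26.4% fell with knockdown. With overexpression 5.78% rose and 7.57% fell. A list count near these shares is not read as a result on the list. In the SSTC3 comparison 24 of 35 DNA replication and S phase genes rose and 6 fell, with Cdt1 (1.08 ± 0.04) and Cdc6 (1.28 ± 0.06), which load the replicative helicase, and Rrm2 (0.79 ± 0.04), a subunit of ribonucleotide reductase. Of 20 mitosis genes 16 fell and 0 rose (1 without DMSO replicate 2), among them Top2a (−0.72 ± 0.04), Cenpf (−1.09 ± 0.05) and Ccnb1 (−0.70 ± 0.04). Slbp, the stem-loop binding protein, rose by 1.13 ± 0.04, from 2405 and 2379 counts to 5072 and 5010 (edgeR, adjusted p = 2.52e-72). Of the 18 histone mRNA processing and transcription factors tested, 6 rose and 8 fell, with Hinfp (0.53 ± 0.08), a transcription factor of H4 genes, up and Cpsf2 (−0.45 ± 0.05), a subunit of the cleavage complex, down. With SSTC3 the replication list and Slbp thus stood higher. The summed clustered histone genes did too, at a ratio of 1.41, and of 1.30 without Hist1h1c. Of the 20 members with counts enough for the test 5 rose and 1 fell, where 27.1% and 26.5% of all genes did.

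With knockdown 23 of 35 S phase genes rose and 3 fell, among them Ccne1 (1.81 ± 0.09), the cyclin of S phase entry, and Mcm6 (0.84 ± 0.05), a helicase subunit. Of 20 mitosis genes 11 rose and 1 fell, with the kinases Plk1 (1.18 ± 0.08) and Aurka (0.67 ± 0.07). Of 17 processing and transcription factors 9 rose and 3 fell, with Coil (1.06 ± 0.11), the Cajal body protein coilin, and Upf1 (0.53 ± 0.06), a helicase of histone mRNA decay. The 4 H1 genes and 3 of 5 tested H2A genes that fell thus did so in libraries where more replication genes rose than fell. With overexpression 4 of 35 S phase genes rose and 3 fell, and 5 of 20 mitosis genes rose and 0 fell, where 5.78% of all genes rose and 7.57% fell. At an unadjusted p under 0.05, 8 mitosis genes were higher and 1 lower by edgeR, and 5 and 0 by DESeq2. Over the alternatives and with each library left out, these counts were 0 to 5, 0 to 3, 3 to 6 and 0 to 1.

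Among the histone genes outside the clusters, most of which make RNA with a poly(A) tail, 4 of 9 fell and 1 rose with knockdown. H1f0, the replication-independent H1 gene, fell by 1.28 ± 0.04 on the log2 scale (edgeR, adjusted p = 4.39e-35), as did H3f3a (−0.50 ± 0.05), a gene of the variant H3.3, while Cenpa (0.41 ± 0.06), the centromeric H3, rose. With SSTC3, 2 of 11 rose and 5 fell, with H3f3b up (0.55 ± 0.03) and Cenpa (−0.47 ± 0.04) and H2afz (−0.26 ± 0.04) down. With overexpression H3f3b rose (0.19 ± 0.03) and H2afj fell (−0.29 ± 0.07), of 10 tested. The fall of H1 with knockdown thus included an H1 gene outside the clusters.

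Of 18 histone chaperones 10 rose and 2 fell with knockdown, among them Daxx (2.52 ± 0.06), which deposits H3.3 and went from 774 and 792 counts to 5024 and 4916. With SSTC3 6 rose and 5 fell, near the 27.1% and 26.5% of all genes. Chaf1b (0.35 ± 0.05), a subunit of the replication-coupled chaperone, rose and Atrx (−0.55 ± 0.04), the partner of Daxx, fell. With overexpression 2 rose and 1 fell, and DESeq2 called 0 of either.

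Small RNAs made without a poly(A) tail were summed beside the clustered histone genes. Such a sum cannot tell how much tail-less RNA a library kept from a change in the expression of these small RNA genes. Their 20 genes summed to 6.36 to 7.55 CPM with SSTC3 and 2.52 to 4.16 with DMSO, 1.67 to 2.44 with overexpression and 2.96 to 3.92 in the controls, and 3.42 to 4.12 with knockdown and 3.80 to 4.09 in the controls. The sum was higher with SSTC3 and lower with overexpression, as were the summed clustered histone genes, and it overlapped between the knockdown groups. These sums rest on only 28 to 128 counts per library, and 11 to 15 of the 20 genes had no count in either library of a group. With SSTC3, Snord17 (1.90 ± 0.51) and Rn7sk (1.46 ± 0.38) rose, of 4 tested, but neither passed without SSTC3 replicate 2 and 1 passed without DMSO replicate 1. The part of tail-less RNA in the histone results was not tested.

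**Figure D5:**
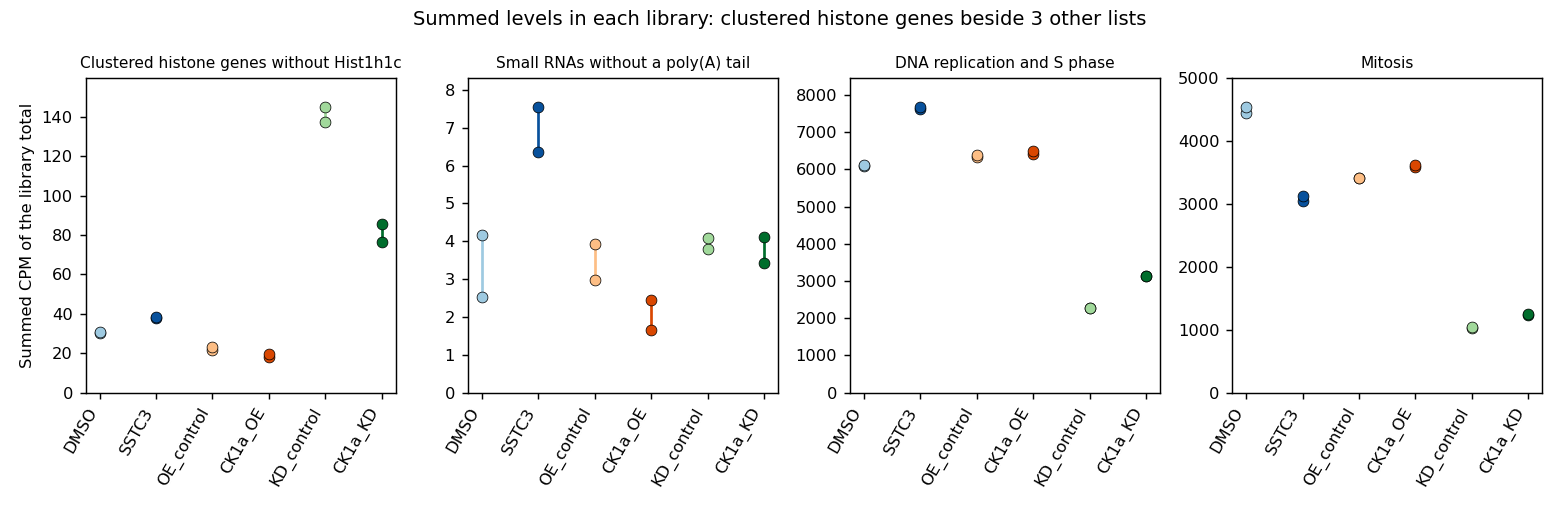
The 2 points of each group are its 2 libraries, joined by a line, and the y axis of each panel is the summed CPM of the library total of the named list, starting at 0. The histone sum without Hist1h1c and the small RNAs are both higher with SSTC3 and lower with overexpression than in their controls, whereas with knockdown the histone sum is lower and the S phase and mitosis sums are higher. The small RNA sums rest on only 28 to 128 counts per library.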

How the data were processed

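The members, lists and tests were chosen with earlier results of these data known. The deposited values are raw counts per gene; the reads were processed by the authors with HISAT2, featureCounts and mm10, per the submitters' processing notes, and the sources used here do not give versions, annotation, strand setting or the treatment of multiply mapped reads. Each comparison was fitted on its own 4 libraries with edgeR 4.0.16 in R 4.3.3 (filterByExpr, TMM factors, robust quasi-likelihood F test), with Benjamini-Hochberg adjustment over all genes tested and a threshold of 0.05. Differences between effects came from a fit of all 12 libraries over the 54100 features that all files list (the overexpression files list 55401, the others 54532). Replicate numbers did not pair libraries (correlations of −0.026, −0.019 and 0), and replicates differed beyond sampling noise (chi-square per degree of freedom 2.29 to 3.61). CPM is scaled to the library total unless called TMM-scaled. Named are members past the threshold, the 2 members of each type with the highest mean CPM and up to 3 genes of each list with the smallest adjusted p; Hist1h1a, Hist1h2ac, Hist1h2ae, Hist1h2bk and Trim17 were added after their values were seen. Of the 20 processing factors, 18 symbols matched. The fits were tested on simulated data that changed only genes at higher levels than most members have, so this test does not cover the low members. Alternatives were library totals, RLE factors, DESeq2 1.42.0, limma-voom (limma 3.58.1), other filters, all 12 libraries, a replicate block and leaving out each library.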

Additional observations from a re-analysis of the deposited data

Results flagged for a closer look

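The effects of 2 comparisons differed for 12 pairs of member and contrast, tested as a contrast of effects in the fit of all 12 libraries (edgeR, log2 values). Knockdown minus SSTC3 was lower for 6 of 33 members tested, where 23.5% of all genes were, and higher for none, where 21.6% were. The 6 were Hist1h1b (−4.96 ± 0.678, adjusted p = 2.5e-09), Hist1h1c (−1.12 ± 0.0867, 1.4e-20), Hist1h1d (−1.24 ± 0.416, 0.0105), Hist1h1e (−1.91 ± 0.41, 4.71e-05), Hist2h3c2 (−2.71 ± 0.743, 0.0015) and Hist3h2a (−3.0005 ± 0.445, 1.27e-08). All but Hist1h1d, lost without SSTC3 replicate 1 (adjusted p = 0.311), held under the 17 alternatives.

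Overexpression minus SSTC3 was lower for 4 of 33 members tested, where 17.2% of all genes were, and higher for none, where 15.5% were. These were Hist1h1c (−1.75 ± 0.177, edgeR, adjusted p = 3.21e-14), Hist1h3d (−3.44 ± 1.26, 0.0276), Hist1h3e (−4.38 ± 1.42, 0.0113) and Hist2h3c2 (−2.62 ± 0.935, 0.0223). The last 3 rest on overexpression set counts of at most 9 and each was lost without OE_control replicate 2; Hist1h3d and Hist1h3e were also lost without CK1a_OE replicate 2, Hist1h3d without SSTC3 replicate 1, and Hist2h3c2 without CK1a_OE replicate 1 or DMSO replicate 1, with adjusted p up to 0.252, 0.11 and 0.172.

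Knockdown minus overexpression was higher for 1 of 33 members tested, Hist1h1c (0.63 ± 0.169, edgeR, adjusted p = 0.00167), where 18.3% of all genes were. The fall of Hist1h1c was deeper with overexpression, and this held under the 17 alternatives. The same contrast was lower for 1 member, Hist1h1e (−1.40 ± 0.507, edgeR, adjusted p = 0.0228), where 16.8% of all genes were. The Hist1h1e difference was lost without either CK1a_OE replicate, OE_control replicate 2 or KD_control replicate 2.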

How the results depend on the processing

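Of the calls, 2 of 6 with SSTC3 (Hist1h1c, Hist3h2a), 1 of 2 with overexpression (Hist1h1c, whose adjusted p DESeq2 gave as NA) and 8 of 11 with knockdown held under every alternative. Members called with SSTC3 were 5 higher and 1 lower, 3 higher with a filter of 1 CPM in 2 libraries (fewer genes tested), 0 lower with DESeq2, and 2 to 5 higher and 0 to 1 lower without 1 library. With overexpression 2 were lower, 1 with no filter, 1 in the fit of all 12 libraries, 0 with DESeq2 and 1 without each library. With knockdown 1 was higher, and 0 with DESeq2, with no filter, in the fit of all 12 libraries and without each library. Without 1 library the effects that differed were 2 to 5 for overexpression minus SSTC3, 1 to 2 higher and 0 to 3 lower for knockdown minus overexpression. The median log2 fold change was 0.38 to 0.58 with SSTC3 and −0.43 to 0.10 with overexpression without 1 library. Each of these medians covers the members that its own fit tested. Without the member of highest CPM the ratios of sums were 1.30, 0.64 (without Hist1h4i) and 0.59.

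Signs turned only in values that did not pass the test: without 1 library, Hist1h3d ran from −0.0057 to 0.57, Hist1h3g from −0.68 to 0.16 and Hist1h4i from −0.30 to 0.36 with SSTC3, Hist1h2bc from −0.85 to 0.13, Hist1h4i from −0.11 to 0.20 and Hist2h2be from −0.24 to 0.31 with overexpression, and Hist1h3g from −0.16 to 0.046 with knockdown. Where not stated, the cause was not tested. With the replicate block the members called stayed at 5 higher and 1 lower, 2 lower, and 1 higher and 10 lower. Without SSTC3 replicate 1, 3 S phase genes, 5 processing factors and 3 chaperones fell with SSTC3, and 3 chaperones fell without DMSO replicate 1; with library totals 3 chaperones rose and 8 fell. Precision followed depth: the standard error was 0.04 for Hist1h1c with knockdown (6628 to 8913 counts) and 0.71 for Hist1h2bf (3 to 15 counts).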
